A study of Mus musculus with 13 samples.

Results

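Normal colorectal tissue of mice injected with microRNAs was compared with normal colorectal tissue of control mice on 4 of the 13 arrays of the series, 2 arrays in each group, which were taken by their sample titles. All groups carried the CPC-Apc genotype, written CDX2P-NLS Cre;Apc+/loxP, in which a CDX2 promoter drives Cre recombinase and 1 allele of the tumor suppressor Apc is floxed. The treated mice received miR-200c, the miR-302 family (-a, -b, -c and -d) and miR-369 (-3p and -5p) through the tail vein, in a carrier of super carbonate apatite. Each microRNA was dosed at 25 µg, with 3 injections weekly that began when mice were 8 weeks old, and 24 injections in all. Controls are described as CPC-Apc mice, and the treatment text gives a negative control microRNA in the same carrier as the alternative to the mixture. Tissue was divided into tumor and normal parts at sacrifice, and the labels give the site only as colorectal. They do not say whether the arrays of a group came from separate mice, so the spread behind the p-values may be technical. That spread was pooled over all 13 arrays, tumors included, and is not that of the 4 normal arrays alone. Each array received 35 ng of total RNA labelled with Cy3.

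MicroRNAs guide a silencing complex to messenger RNAs that pair with the seed, bases 2 to 8 of the mature strand, and lower the translation and stability of those messengers. miR-200c is an epithelial microRNA best known for repressing the transcription factors Zeb1 and Zeb2, which switch off E-cadherin. The miR-302 family is abundant in pluripotent cells, and the injected mixture is one that has been used to reprogram cells. The mature mouse sequences of the mixture, apart from miR-302a, follow so that the shared seeds can be seen. They come from RefSeq (GRCm38.p6), with the seed in capitals, and the labels do not say whether mouse or human sequences were injected.
mmu-miR-200c-3p: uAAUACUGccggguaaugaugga
mmu-miR-302b-3p: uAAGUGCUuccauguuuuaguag
mmu-miR-302d-3p: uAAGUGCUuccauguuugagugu
mmu-miR-302c-3p: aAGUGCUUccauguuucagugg
mmu-miR-369-3p: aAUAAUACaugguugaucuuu
mmu-miR-369-5p: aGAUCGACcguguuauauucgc
miR-302b and miR-302d had the same seed, and the RefSeq entry of miR-302c started 1 base later in the shared stretch, which shifts its counted seed by 1 base. The seeds of miR-200c and of both miR-369 strands differed from these and from each other. The miR-302 genes lay together on the plus strand of chromosome 3, with miR-302b at chr3:127545275-127545297 and miR-302d at chr3:127545665-127545687, and miR-200c lay on the minus strand at chr6:124718324-124718346.

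All levels below are log2 signals relative to the array's own 75th percentile, so a level of 0 is the 75th percentile of that array, and a difference of 1 is 2-fold. Levels are given in the order microRNA replicate 1, microRNA replicate 2, control replicate 1, control replicate 2. The 75th percentile signal of the 4 arrays ran from 213.2 to 318.5 and the share of probes well above background from 52.11% to 55.17%. The number of arrays limits the precision. A gene was called at a limma p-value under 0.05 after Benjamini-Hochberg adjustment over 25379 genes, with all 13 arrays in the fit. The median difference over all genes was 0.05. Of the 4 arrays, 3 lay on slide 2 and microRNA replicate 2 lay on slide 1, so slide 2 alone compares microRNA replicate 1 with both controls. Control replicate 2 stood apart from the other 3 arrays in sex-linked genes. Xist, the transcript that silences an X chromosome, was at -6.20, -6.11, -6.16 and 0.45, and the Y-linked Ddx3y was at 0.57, 0.11, 0.71 and -6.41. The labels give no sex. A number in the deposited files is shared by microRNA normal replicate 1 and microRNA tumor 1 (number 8). MicroRNA normal replicate 2 and microRNA tumor 2 share number 2, and control normal replicate 2 and control tumor 3 share number 10. Control tumors 1 and 2 share number 5, and control tumors 4, 5, 6 and 7 share number 6. The labels do not say what the number stands for. The main fit treats all arrays as independent, so the pooled spread may rest on fewer sources than arrays.

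Between microRNA-treated and control normal tissue, 72 genes were called higher (0.284% of the genes tested) and 62 lower (0.244%), 134 in all (0.528%). Genes of the small intestine lining and of Paneth cells, the antimicrobial cells at the base of small intestinal crypts, were among those that rose. Keratins, hair keratin-associated proteins and fast skeletal muscle myosins were among those that fell. By membership, 30 of the 72 genes that rose were in the small intestine, ileum or Paneth lists or were alpha-defensins, and 26 of the 62 that fell were in the skin lists or had a keratin-type symbol. Another 5 of the 62 were skeletal muscle genes. In the small intestine and ileal lists 6 and 2 genes rose. The others of the 30 were Mmp7 and alpha-defensins, older symbols among them, whose probes may share signal. The symbol families were chosen after the values were seen. The remaining called genes with a symbol numbered 35 higher and 21 lower, and 7 higher and 10 lower had no symbol. At an unadjusted p under 0.05, 1399 genes passed. The count of 134 fell to 51 without microRNA replicate 1 (28 higher, 23 lower), to 77 without microRNA replicate 2 (51 and 26) and to 72 without control replicate 1 (38 and 34). Without control replicate 2 it was 119, with 50 higher and 69 lower, and 95 of these were among the 134. In such fits the lone array of a group is assumed to vary like the other groups. With normexp background correction 56 genes were higher and 19 lower, and with the 4 normal arrays fitted alone 45 were higher and 9 lower. On slide 2 alone 41 genes were called, all of them higher; there the spread came from the 2 control normal arrays only. With the shared file number as a random block, 121 genes were called, 120 of them among the 134.

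**Figure D1:**
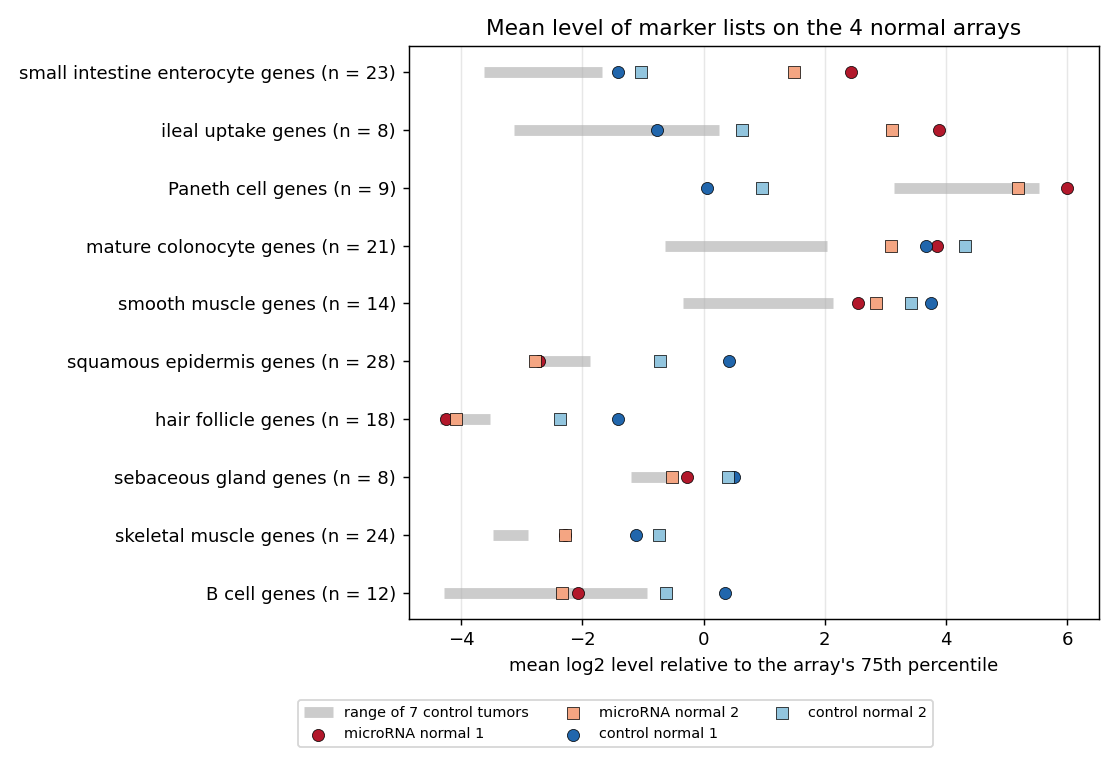
Mean log2 level of the measured members of 10 marker lists (rows, with the number of members) on the 4 normal arrays (points); grey bars span the 7 control tumors. The microRNA arrays sat to the right of the controls for the small intestine, ileal and Paneth lists and to the left for the squamous, hair, muscle and B cell lists, while the colonocyte list overlapped.

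The alpha-defensins, small antimicrobial peptides that Paneth cells secrete into the crypt, rose. All 16 measured genes of the family with a current symbol were called, but their sequences are so alike that probes may share signal, and they are read here as 1 family. In 11 of them both control arrays were well above background, and these differed by 8.32 to 10.47 with a median of 8.62. In 4 others only 1 control array was, and in Defa39 neither, where the rise was at least 531-fold. Defa3 was at 9.23, 8.27, -0.46 and 0.83, a difference of 8.56 (SE 0.89, limma adjusted p = 0.00089). Both microRNA arrays were high and both control arrays near 0, with no overlap. The medians over the family were 8.00, 6.62, -2.52 and -2.15, against 2.78 in microRNA tumors and 3.16 in control tumors. The control normal arrays were thus below the tumors of both treatments, and the microRNA normal arrays were above them. On slide 2 alone Defa3 differed by 9.04.

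Other Paneth cell genes moved unevenly. Mmp7, the protease that activates alpha-defensins in mice, was at 3.16, 2.43, -1.77 and -0.38 and rose by 3.87 (SE 0.65, limma adjusted p = 0.0181). Its tumor means, 5.68 with microRNAs and 5.42 without, were above all 4 normal arrays. Lysozyme gene Lyz1 stood at 7.31, 5.65, 4.10 and 3.74, higher on both microRNA arrays, with a difference of 2.56 that did not pass (limma adjusted p = 0.333). Ang4, an angiogenin family antimicrobial gene also made by goblet cells, went the other way, at 4.36, 4.92, 5.54 and 6.41, and did not pass (limma adjusted p = 0.959). Of the 9 measured members of the Paneth list 5 rose (0.284% over all genes), namely Mmp7 and the alpha-defensins Defa3, Defa5, Defa21 and Defa26. The list's median difference, 3.87, was that of Mmp7, and it was 4.23 on slide 2 alone. The list's mean level was 6.00, 5.19, 0.05 and 0.96.

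Genes of absorptive cells of the small intestine were higher in the microRNA group. The list had 23 measured members, of which 6 rose (0.284% over all genes) and none fell. In 21 of them both microRNA arrays were above both controls (22.6% over all genes). The list's median difference was 2.52, and 2.97 on slide 2 alone. Of the 23, 2 were well above background on microRNA normal arrays only, and 20 would have passed the background filter without those arrays. Apoa1, the main protein of high-density lipoprotein, made by small intestine and liver, was at 4.21, 2.39, -5.40 and -5.32. Both control arrays were not well above background, so the ratio is a bound, at least 380-fold higher (limma adjusted p = 0.000216). The probe lies at chr9:46037921-46037980 (mm9, the build named in the array files). Bounds here set the bright group's mean against the higher of each dim array's own signal and its lowest signal well above background.

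Apoa4, an apolipoprotein of chylomicrons, was at -3.28, -2.67, -5.92 and -6.07, at least 6.36-fold higher (limma adjusted p = 0.000343). On the tumor arrays it was at most -6.15, so it was measured only through the microRNA normal arrays. Mttp, which loads lipid onto apolipoprotein B, was at 2.35, 1.53, -3.02 and -2.91 and rose by 4.90 (SE 0.44, limma adjusted p = 0.000343). In neither gene did the groups overlap. Anpep, a brush border peptidase, stood at 8.14, 6.93, 1.35 and 2.13 and rose by 5.79 (SE 0.61, limma adjusted p = 0.000941). Slc6a19, the neutral amino acid transporter of the gut surface, was at 1.88, 0.58, -6.34 and -6.78, at least 119-fold higher (limma adjusted p = 0.00512). The cystine transporter subunit Slc7a9 rose by 4.71 (SE 0.87, limma adjusted p = 0.0352), a call kept in 15 of 28 alternatives.

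Several classical enterocyte genes did not pass. Sucrase-isomaltase, Sis, was at 4.53, 2.72, -3.84 and -0.61, with no overlap, a difference of 5.85 and a limma adjusted p of 0.0780. Control replicate 1 was the lowest of the 4, and the control arrays differed by more than the microRNA arrays. Fabp1, a fatty acid binding protein of the proximal small intestine, was at -0.53, -1.84, -3.26 and -2.83 (difference 1.86, limma adjusted p = 0.932). Fabp2, expressed along the intestine, was high on all arrays, at 8.38, 8.35, 6.63 and 8.08. Slc15a1, the peptide transporter, overlapped between the groups at 0.24, -1.52, -0.14 and -0.67. Apoc3 had 2 probes that differed by 0.22 and 3.79 and is not read further.

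The ileal genes were those of bile acid recovery and vitamin uptake, tasks of the last part of the small intestine. All 8 measured genes had both microRNA arrays above both controls (22.6% over all genes). Of the 8, 2 rose (0.284% over all genes), with a list median difference of 3.02, and 3.42 on slide 2 alone. Without the microRNA normal arrays 7 of the 8 would have passed the background filter, so the counts and median describe the measured genes. Fabp6, the ileal bile acid binding protein, was at 9.55, 8.51, 1.28 and 2.99, a difference of 6.90 (SE 1.11, limma adjusted p = 0.0137). Fgf15, the hormone that ileal cells release to restrain bile acid synthesis in the liver, was at -2.03, -3.58, -6.02 and -6.45. It was at least 7.24-fold higher (limma adjusted p = 0.00289), since it was not well above background on the control arrays. Fgf15 was measured only through the microRNA normal arrays, where it was high, so its p-value is no independent support. Slc10a2, which takes up bile acids, was at 4.83, 4.63, 1.18 and 2.87, without overlap, and did not pass (limma adjusted p = 0.637). Slc51a, which exports them, was at 7.44, 6.89, 3.00 and 5.07 and did not pass (limma adjusted p = 0.959). Both were well above background on all 4 arrays, so bile acid transport genes were also measured in control tissue.

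Outside the small intestine, ileal and Paneth lists and the alpha-defensins, 35 genes with a symbol rose, of which the following 6 are examples. Smlr1, a small membrane protein of liver and intestine that acts in lipoprotein secretion, was at 0.62, -0.85, -6.11 and -6.52, at least 47.0-fold higher (limma adjusted p = 4.2e-05). On the tumor arrays it was at most -6.36, so it was measured only through the microRNA normal arrays. Npc1l1, the intestinal cholesterol importer, was at 2.38, 0.91, -4.52 and -4.04, at least 60.8-fold higher (limma adjusted p = 0.00183). The cholesterol-esterifying enzyme Soat2 rose by 4.41 (SE 0.48, limma adjusted p = 0.00110) and the anion exchanger Slc26a6 by 4.71 (SE 0.42, limma adjusted p = 0.000343). Pdzk1, a scaffold of brush border transporters, was at 3.53, 0.94, -5.97 and -4.66, at least 145-fold higher (limma adjusted p = 0.00182). Ccl25, the chemokine that brings lymphocytes to the small intestine, was at 5.43, 4.01, 1.5 and 2.01 and rose by 2.96 on the probe used (limma adjusted p = 0.0455), while its least different probe gave 0.25. Its call was kept in 7 of 28 alternatives. In all 6 genes both microRNA arrays were above both control arrays.

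Nos2 and Olfm4 rose too. Nos2, the inducible nitric oxide synthase, was at 3.39, 2.68, -1.24 and -1.24, a rise of 4.28 (SE 0.60, limma adjusted p = 0.00575). Olfm4, which marks crypt base cells of the small intestine more than of the mouse colon, was at -0.60, -0.83, -5.60 and -6.44, at least 31.0-fold higher (limma adjusted p = 0.0216). The remaining 12 of the 13 measured crypt stem cell genes did not pass, and Lgr5 was at 0.35, -0.13, -0.34 and -0.16.

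**Figure D2:**
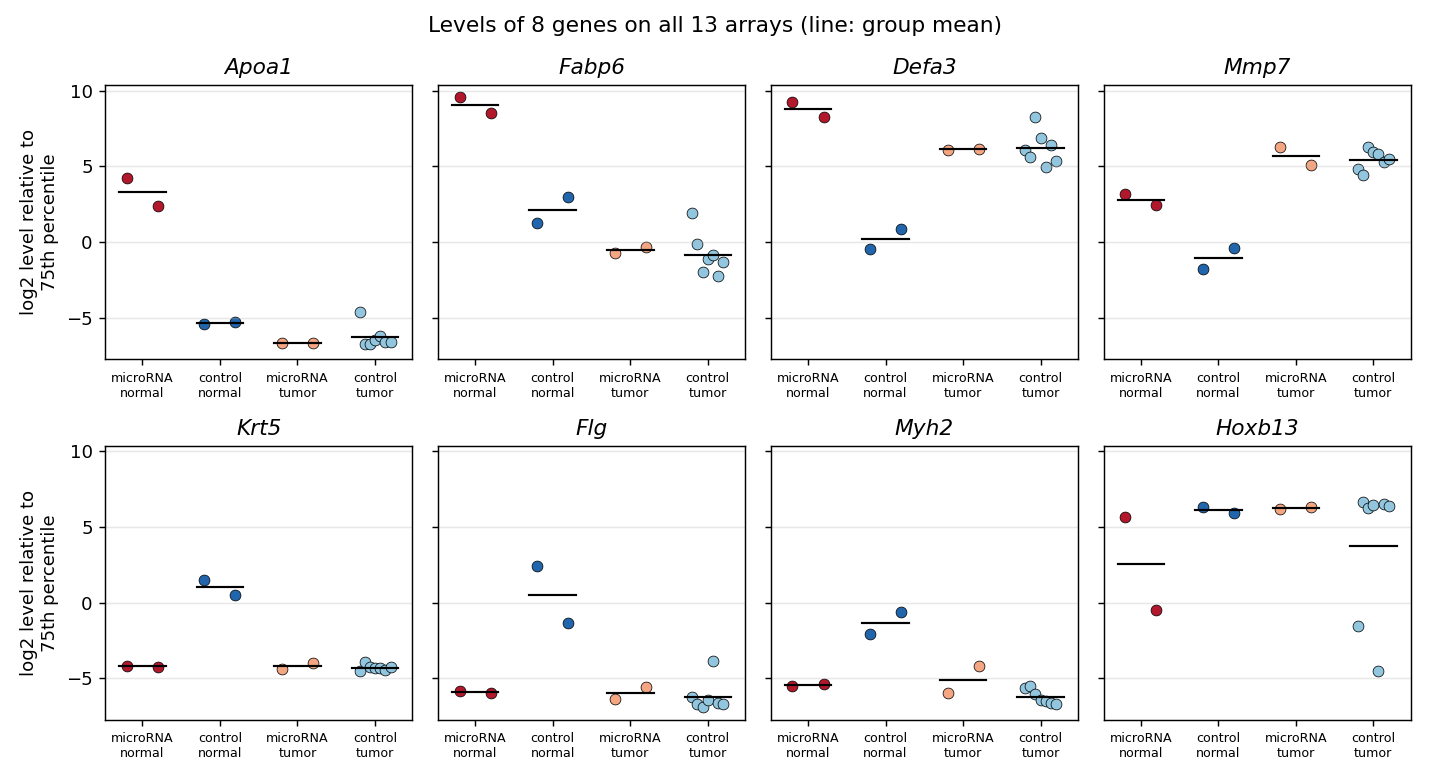
Log2 level relative to the array's 75th percentile of 8 genes (panels) on all 13 arrays by group (points; lines are group means). Apoa1, Fabp6 and Defa3 were highest in microRNA normal tissue, Krt5, Flg and Myh2 in control normal tissue, and Hoxb13 was low on 1 of the 2 microRNA normal arrays and on 2 of the 7 control tumors.

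Skin genes were lower in the microRNA group. Of 28 measured genes of squamous epidermis, the stratified lining of skin and anal canal, 9 fell (0.244% over all genes) and none rose. In 21 of the 28 both microRNA arrays were below both controls (17.9% over all genes). The median difference was -2.18, -2.0 on slide 2 alone and -1.11 with normexp. Of the 28 genes, 4 were well above background on control normal arrays only, and 21 would have passed the background filter without those arrays. The others were measured only through the group where they were high, and the count and median describe the measured genes. Krt5, the keratin of the basal layer, was at -4.18, -4.24, 1.52 and 0.50. It was not well above background on the microRNA arrays and was at least 37.3-fold lower (limma adjusted p = 4.2e-05), with a group difference of -5.22. Its tumor means were -4.21 with microRNAs and -4.30 without, so only the 2 control normal arrays were high among the 13.

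Genes of the outer epidermal layers followed. Krt1 was at -5.96, -6.00, 1.06 and -1.84 and at least 47.4-fold lower (limma adjusted p = 0.00179). On the tumor arrays Krt1 was at most -6.15, so it was measured only through the control normal arrays, where it was high. Its p-value is no independent support. Filaggrin, Flg, the protein that bundles keratin filaments, was at -5.82, -6.00, 2.42 and -1.37 and at least 86.6-fold lower (limma adjusted p = 0.0223). Loricrin, Lor, of the cornified envelope, was at -3.36, -4.82, 3.30 and 1.63, a difference of -6.55 (SE 0.98, limma adjusted p = 0.00911). Control replicate 1 was above control replicate 2 in each of these 3 genes. Without control replicate 1 the median of the epidermis list was -1.61. Krt14, the usual partner of Krt5, was at -2.87, -2.93, 0.09 and -0.71 and did not pass (limma adjusted p = 0.363). Trp63, the epidermal master regulator, was at 3.08, 2.86, 3.62 and 3.11 on the probe used, with no such gap, and did not pass (limma adjusted p = 0.959).

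Of 18 measured hair follicle genes 5 fell (0.244% over all genes), with a median of -1.44 (-0.38 with normexp). Here 5 of the 18 were measured only through the control normal arrays, and 14 and 16 were well above background on the controls against 5 and 6 on the microRNA arrays. Of 8 sebaceous gland genes 1 fell (0.244% over all genes), 5 were lower and 3 higher. Their median was -0.36, and 0.03 on slide 2 alone. Krtap19-2, a matrix protein of the hair shaft, was at -5.98, -5.38, 2.83 and 0.03, at least 134-fold lower (limma adjusted p = 0.000775). Krt71, a keratin of the inner root sheath, was at -6.28, -5.98, 0.24 and -1.17, at least 44.5-fold lower (limma adjusted p = 0.00179). Krt79, of the follicle opening and sebaceous duct, was at -1.62, -1.67, 2.37 and 1.42 and fell by 3.54 (SE 0.33, limma adjusted p = 0.000376). In each, both control arrays were far above both microRNA arrays. Across symbol families, 7 of 44 Krt genes, 7 of 33 Krtap genes and 5 of 13 Lce genes fell (0.244% over all genes). No gene of these families, chosen after the values were seen, rose (0.284% over all genes). In the Krt family 24 genes had both microRNA arrays below both controls (17.9% over all genes) and 8 had both above (22.6% over all genes). None of the 10 measured Sprr genes, small cornified envelope proteins, passed, with a median of -0.22.

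Skeletal muscle genes, which in this region belong to the external anal sphincter and pelvic floor, fell in part. Of 24 measured genes 5 fell (0.244% over all genes), namely Myh1, Myh2, Myh8, Tnnc2 and Mb. The list median was -1.06, and -1.18 on slide 2 alone. The median was -0.48 with normexp and -0.57 without the filter on dim probes. Of the 24, 2 were well above background on control normal arrays only, and 21 would have passed the filter without those arrays. Myh2, a fast myosin heavy chain, was at -5.53, -5.35, -2.09 and -0.65, at least 16.8-fold lower (limma adjusted p = 0.0106). Mb, the oxygen-storing myoglobin, was at -4.70, -5.98, -2.05 and 0.22, at least 21.4-fold lower (limma adjusted p = 0.0115). Acta1, skeletal actin, was at 0.41, 0.51, 1.77 and 2.39 and did not pass (limma adjusted p = 0.589). The creatine kinase Ckm was at -2.33, -0.97, -0.71 and -0.25 and did not pass (limma adjusted p = 0.959). All 14 measured genes of smooth muscle, the muscle of the gut wall, had both microRNA arrays below both controls (17.9% over all genes). Their median difference was -0.97, and none passed the test. Actg2, enteric smooth muscle actin, was at 6.40, 6.70, 7.77 and 7.32.

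The tissue label was checked against colon genes. Colonocyte genes were well above background on nearly all 4 arrays (20 or 21 of 21 measured genes on each), with mean levels of 3.85, 3.09, 3.67 and 4.31 and a median difference of -0.04. Car1, a carbonic anhydrase of colonocytes, was at 8.59, 8.95, 7.30 and 9.14, and the water channel gene Aqp8 at 7.03, 7.20, 6.69 and 7.27. Neither gene separated the groups. Goblet cell genes also overlapped in their means, with a median difference of 0.03. All 23 small intestine genes were well above background on both microRNA arrays, and 18 and 20 of them on the controls. Of the 28 epidermis genes, 25 were so on each control array and 14 on each microRNA array.

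Distal colon genes were read next, and none passed the test. Of 12 measured posterior Hox genes 11 were lower and 5 had both microRNA arrays below both controls (17.9% over all genes). The list had a median of -0.70 and mean levels of -1.36, -2.49, -0.49 and -1.04. Hoxb13, a homeobox gene of the hindmost gut, was at 5.66, -0.49, 6.35 and 5.91. Hoxd13, its counterpart in the HoxD cluster, was at -0.68, -6.02, 1.54 and 0.70, and Fxyd4, a regulator of the sodium pump in distal colon, at 2.37, -6.03, 3.88 and 3.26. In all 3 genes microRNA replicate 1 was closer to the controls and microRNA replicate 2 was far below the other 3 arrays, and both lay below both controls. Atp12a, the colonic proton-potassium pump, had the same order at -0.05, -3.67, 1.63 and 1.62. Fxyd4 and Atp12a belong to the list of 21 measured colonocyte genes, of which 9 were higher and 11 lower. Slc9a3 of that list went the other way without overlap, at 4.27, 4.69, 3.28 and 3.96. The limma adjusted p was 0.959 for Hoxb13, Hoxd13 and Fxyd4 and 0.844 for Atp12a. With a gap of 3 as the minimum, 21 genes with a symbol were lower on microRNA replicate 2 than on each of the other 3 arrays, a count made after these values were seen. The general intestinal factor Cdx2, whose promoter drives Cre in these mice, was level at 5.66, 5.33, 4.76 and 5.40, as was Cdx1 at 6.41, 6.48, 6.32 and 6.56.

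**Figure D3:**
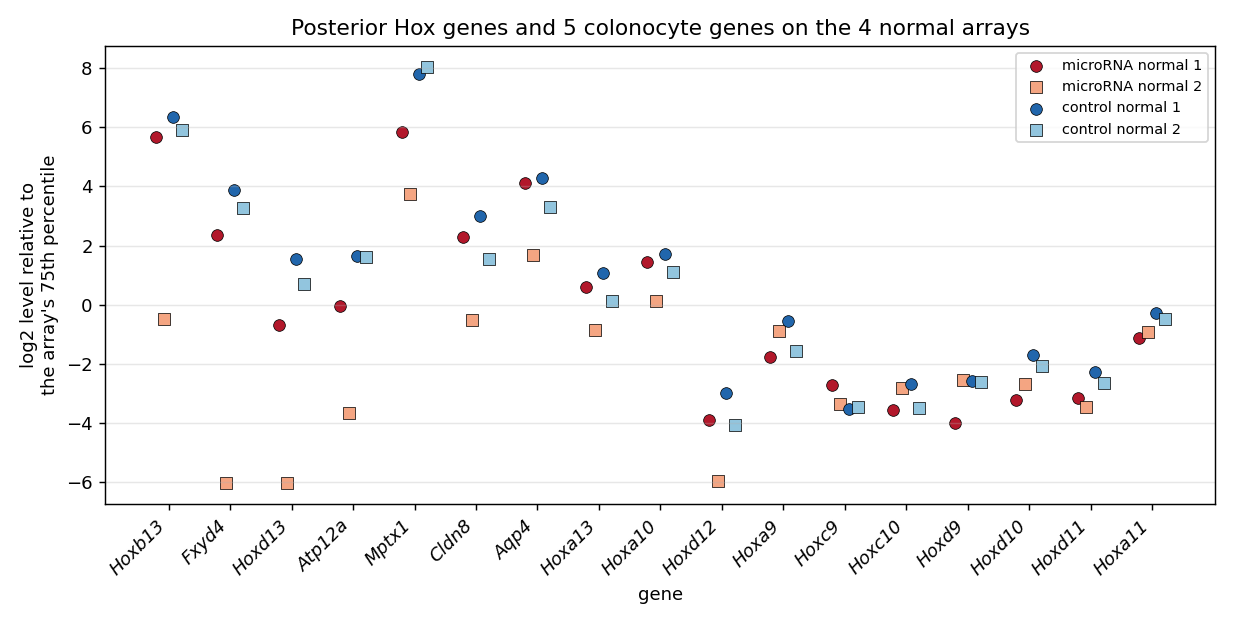
Log2 level relative to the array's 75th percentile of the 12 measured posterior Hox genes and 5 of the 21 measured colonocyte genes (x axis) on the 4 normal arrays (points). The 5 do not stand for the colonocyte list, in which 9 genes were higher and 11 lower in the microRNA group. Slc9a3 of that list, higher on both microRNA arrays, is not drawn. MicroRNA normal 2 lay at least 3 below each of the other 3 arrays for Hoxb13, Fxyd4, Hoxd13 and Atp12a; for Hoxd12, Mptx1, Cldn8 and Aqp4 it was also the lowest, by less.

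No member of the immune cell lists passed the test. Of 12 measured B cell genes, 10 were below both controls on both microRNA arrays (17.9% over all genes), with a median of -2.33. Ms4a1, which encodes the B cell surface protein CD20, was at -1.09, -2.43, 2.80 and 1.52 (limma adjusted p = 0.812). Outside that list, Ccr7, a homing receptor of lymphocytes, was at -1.72, -1.74, 0.53 and -0.06, with both microRNA arrays below both controls. It fell by 1.97 (SE 0.35, limma adjusted p = 0.0253), a call kept in 16 of 28 alternatives. Of 19 measured T and NK cell genes, 11 were above both controls on both microRNA arrays (22.6% over all genes), with a median of 0.42. Among them the granzymes Gzma and Gzmb did not pass, with Gzma at 5.21, 4.00, -0.46 and 0.72 and Gzmb at 0.31, 0.02, -2.90 and -2.28 (limma adjusted p = 0.381 and 0.173). The medians were -0.16 for macrophage, 0.13 for plasma cell, 0.01 for mast cell and -0.29 for neutrophil genes. In these bulk samples, fewer cells of a type and less RNA per cell cannot be told apart.

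Genes that answer injected RNA or infection were next examined. All 24 measured interferon-stimulated and RNA-sensing genes were higher in the microRNA group, 19 of them on both arrays above both controls (22.6% over all genes), with a median difference of 0.97, and none passed the test. Oasl2 was at 3.56, 3.57, 1.54 and 2.68, and the list's mean at 1.28, 1.29, -0.18 and 0.73. Control replicate 1 was the lowest and control replicate 2 lay between it and the microRNA arrays. Of 13 epithelial antimicrobial genes, only Nos2 passed. The antibacterial lectins Reg3g (8.97, 8.20, 1.78 and 5.09) and Reg3b (9.35, 8.83, 2.02 and 6.12) did not (limma adjusted p = 0.375 and 0.552), with control replicate 1 far below control replicate 2. These genes moved together with the small intestine list on the same arrays, and the part of tissue site in them was not tested.

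Reported targets of the injected microRNAs were then read. Of 20 measured targets of miR-200c none passed, 16 were lower and 4 higher, 12 had both microRNA arrays below both controls (17.9% over all genes), and the median was -0.44. Zeb1 was at -0.54, -0.74, 0.76 and 0.39, a difference of -1.21 (SE 0.30) that did not pass (limma adjusted p = 0.180). It was 1 of 5 genes of the list under an unadjusted p of 0.05. On slide 2 alone the difference was -1.11. Zeb2 was at 0.01, -0.43, 0.75 and 0.60 (difference -0.89, SE 0.35, limma adjusted p = 0.770), and the cytoskeletal linker gene Msn was at 2.83, 2.35, 3.80 and 3.31 (limma adjusted p = 0.298). In these 3 genes both microRNA arrays were below both controls. In tumors the differences were 0.40 for Zeb1 and 0.25 for Zeb2, and the median of the list was 0.10.

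Zeb1 and Zeb2 are made mainly by stromal cells in the gut wall, and the stroma lists were lower on the same arrays. The medians were -0.61 over 17 fibroblast and matrix genes, 16 of them lower, and -0.49 over 14 endothelial genes, all 14 lower, with none called. The fibroblast list had mean levels of 1.99, 2.03, 2.57 and 2.70. The part of these cells in the levels of Zeb1 and Zeb2 was not tested. E-cadherin, Cdh1, which both factors repress, was level at 5.00, 4.56, 4.75 and 4.73 (difference 0.04, SE 0.23).

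The miR-302 list showed no shift. Of 25 measured targets none passed, 13 were higher and 10 lower, with a median of 0.02. Lefty1 and Lefty2, inhibitors of Nodal signalling, went opposite ways, Lefty1 at -1.84, -1.92, -1.0 and -0.85 and Lefty2 at -2.20, -2.03, -2.98 and -3.49. Neither passed (limma adjusted p = 0.912 and 0.792). The TGF-beta receptor Tgfbr2 was at 2.83, 2.96, 3.19 and 3.26, with a difference of -0.33 (SE 0.24), and the nuclear receptor Nr2f2 differed by -0.18 (SE 0.26). Pluripotency genes (9 measured, median -0.06), microRNA processing genes (13, median 0.24) and the 20 epithelial and mesenchymal state genes (median -0.01) had no called member.

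**Figure D4:**
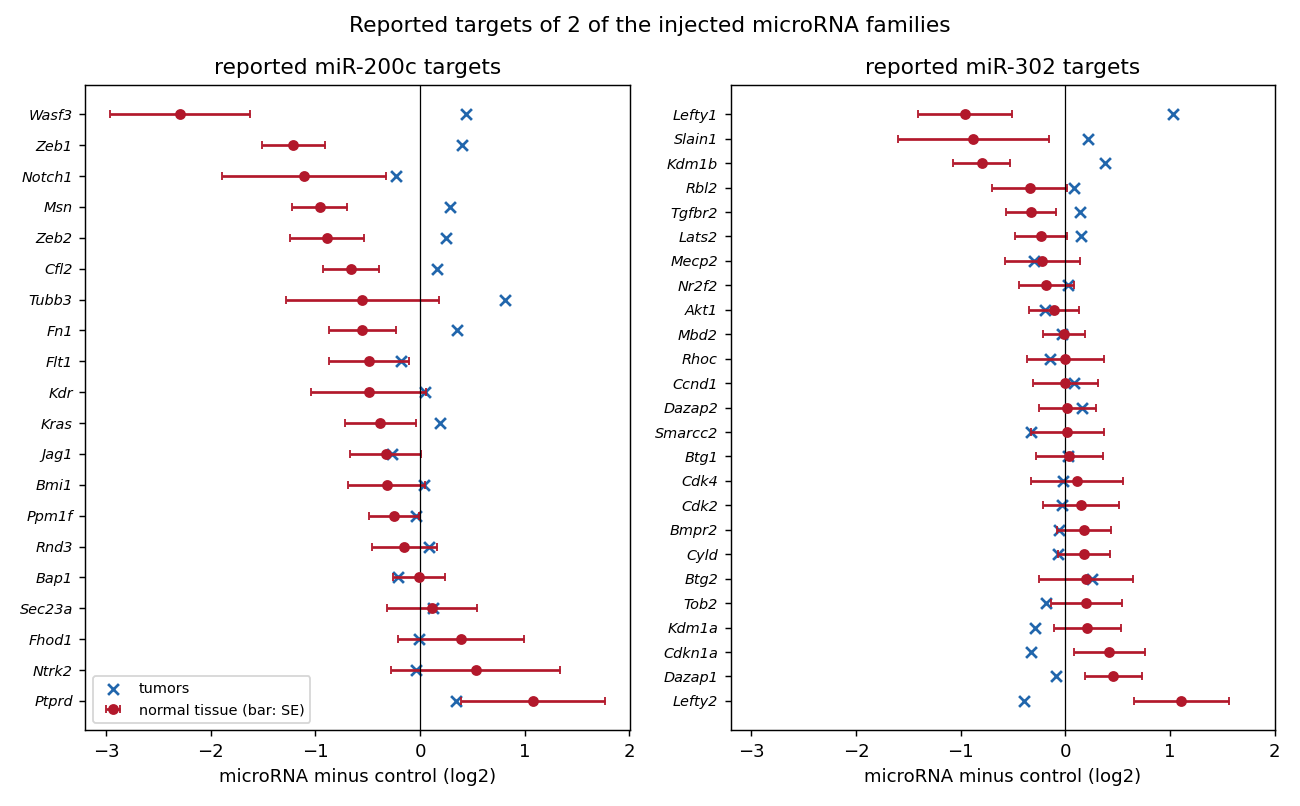
Difference between microRNA and control groups in log2 for reported miR-200c targets (left, 20 genes) and miR-302 targets (right, 25 genes), in normal tissue (circles with SE bars) and in tumors (crosses). None was called; 16 of 20 miR-200c targets were below 0 in normal tissue, against 10 of 25 miR-302 targets.

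Pathways that the Apc genotype touches were level. None of 22 Wnt target genes (median 0.04), 23 proliferation genes (median 0.10) or 10 destruction complex genes (median 0.13) passed. Apc itself was at -1.48, -1.06, -1.11 and -1.72, the Wnt feedback gene Axin2 at -0.92, -0.66, -1.30 and -1.56, and Mki67, a marker of dividing cells, at 3.93, 4.08, 4.34 and 3.66. The arrays of both groups overlapped for Apc and Mki67.

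The same treatment was compared in tumors, on 9 other arrays. There 1 gene was called (0.00394%), the olfactory receptor Olfr1055, and 535 passed at an unadjusted p under 0.05. None of the 134 genes called in normal tissue was called in tumors. For the 72 genes that rose, the median difference was 4.85 here against -0.25 in tumors. For the 62 that fell, the medians were -3.92 and -0.12. The test of the difference between the effects called 71 genes (0.28%), of which 44 were among the 72 and 26 among the 62. This test uses the same 4 normal arrays, so it is not a second measurement of them.

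**Figure D5:**
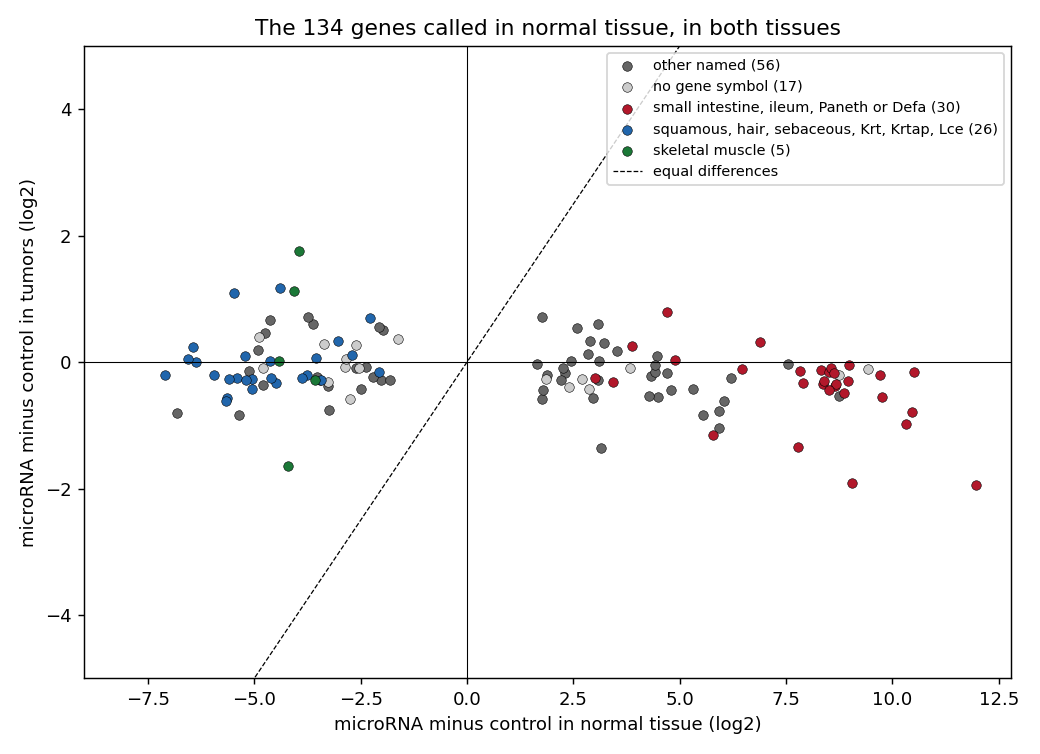
Each point is 1 of the 134 genes called in normal tissue, with its difference between microRNA and control groups in normal tissue (x axis, log2) and in tumors (y axis, log2), coloured by list or symbol family. On the y axis the points lie between -1.95 (Defa38) and 1.75 (Myh8), away from the dashed line of equal differences.

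Some of the genes that rose were dim in control normal tissue and bright in tumors of both treatments. Habp2, a serine protease, was at 1.23, -0.51, -5.71 and -5.68, with tumor means of 1.72 with microRNAs and 2.33 without. Complement factor I, Cfi, was at 0.58, -1.77, -5.92 and -6.40, with tumor means of 1.38 and 2.21. Otop2, a proton channel, was at -0.84, -2.40, -5.87 and -6.32, with tumor means of 1.85 and 1.74, and its call was kept in 18 of 28 alternatives. In these 3 genes the control normal arrays were the low ones among all 4 groups.

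To separate sampling site from treatment, the mean levels of the small intestine, squamous and skeletal muscle lists were added to the fit as covariates. No gene was then called, and the smallest limma adjusted p was 0.178, with 989 genes under an unadjusted p of 0.05. The median SE of a difference grew from 0.41 to 2.59. The covariates themselves separated the groups, the small intestine level being 4.24 and 3.30 on the microRNA arrays and 0.38 and 0.77 on the controls, relative to its mean over all 13 arrays. In these 4 arrays the treatment and the site of sampling cannot be told apart.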

How the data were processed

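Total RNA was measured on 1-colour Agilent SurePrint G3 mouse arrays. The deposited values are intensities: the authors' scanner software, Feature Extraction 10.7.3.1 per the file headers, gave a background-subtracted processed signal (an intensity) for each spot. From these, spots of 1 probe were averaged after leaving out 3671 control spots. Each signal was scaled to the array's 75th percentile and put on the log2 scale. Probes well above background on at least 2 arrays were kept (35214 of 55681), with 1 probe for each gene, which gave 25379 genes. Differences were fitted with limma 3.58.1 (R 4.3.3; lmFit and eBayes) over the 4 groups of all 13 arrays, without a block, with Benjamini-Hochberg adjustment at 0.05, and the code was tested on simulated data. Alternatives changed the background correction, scaling, filter, probe rule, arrays, slide or file-number block, replicate block and site covariates. The comparison and the gene lists were chosen with earlier results of these data known. Named genes were up to 12 called genes with a symbol in each direction by largest difference and by smallest p, in each list the 6 genes of lowest p, and preset site markers and microRNA targets. Pdzk1, Npc1l1, Ccl25, Apoc3, Slc15a1, Slc51a, Ang4, Ccr7, Habp2, Cfi and Otop2 were chosen after their values were seen, as was Olfr1055, the 1 gene called in tumors. No genome sequence was used, so target sites were not searched. Some genes are not reported here.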

Additional observations from a re-analysis of the deposited data

Results flagged for a closer look

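For 31 of the named genes the difference between groups in normal tissue was not the same as in tumors. The criterion was an adjusted p under 0.05 in limma's test of the difference between the effects. Over all genes 71 passed (0.28%). Many named genes were picked by their difference or p-value on the same 4 normal arrays, which enter this test. Their passing was thus partly set in advance, and the count of 31 is no support. These values are the log2 difference in normal tissue minus that in tumors. Among Paneth cell defensins the value was 8.66 for Defa3, 10.31 for Defa5, 9.92 for Defa26, 13.92 for Defa38, 10.96 for Defa39 and 8.79 for Defa40. Among small intestine genes it was 9.04 for Apoa1, 3.27 for Apoa4, 4.86 for Mttp, 6.95 for Anpep, 9.13 for Slc6a19 and 3.75 for Fgf15. The lipid and transport genes gave 6.46 for Smlr1, 7.58 for Pdzk1, 6.70 for Npc1l1, 4.45 for Soat2 and 4.89 for Slc26a6. Nos2 gave 4.81, Habp2 6.66 and Cfi 6.40.

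Among skin genes the value was -5.31 for Krt5, -5.34 for Krt1, -6.91 for Krtap19-2, -5.73 for Krtap22-2, -5.04 for Krt71, -4.91 for Lce1a1 and -3.59 for Krt79. Among muscle genes it was -3.28 for Myh1, -5.19 for Myh2 and -5.71 for Myh8. The lymphocyte homing receptor Ccr7 gave -2.48. Of the genes above, Apoa4, Fgf15, Smlr1, Krt1, Krtap22-2, Lce1a1 and Myh1 were at -6.15 or below on every tumor array. They were measured only through the normal group where they were high, so their values are no independent support.

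Of the 7 control tumors, control tumor 3 had a squamous epidermis level of -1.88, against -2.47 in the nearest other tumor, and a sex-linked gene level of -5.14, against -1.94. It shares its file number, 10, with control normal replicate 2, the normal array that stood apart in sex-linked genes; whether both came from 1 mouse is not given in the labels, and the fits treat them as independent. Control tumor 2 had a B cell level of -0.93, against -3.07, and a circadian clock level of -0.22, against -0.66. Dixon's rule at its 95% critical value sets such gaps apart, and some groups pass it by chance. These tumors enter the normal tissue comparison through the shared estimate of spread, the background filter and the choice of probe, and not through the group means. In the fit with site covariates they also enter the site terms.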

How the results depend on the processing

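The 134 genes called in normal tissue became 75 with normexp background correction, 54 with the 4 normal arrays alone, 41 on slide 2 alone and 0 with site levels as covariates. Leaving out 1 array gave 51 to 156. The 1 gene called in tumors became 0 with normexp, with the deposited table unscaled, with trend and robust estimation, with the file-number block and with site covariates, and 2 without a filter; leaving out 1 array gave 0 to 1. The 71 genes of the difference became 39 with normexp and 0 with site covariates, and leaving out 1 array gave 18 to 92. Normal arrays with the same replicate number did not deviate together across genes (correlation -0.02). This rests on 1 replicate difference in each group, so it cannot decide whether replicate numbers pair samples. A replicate block over the 4 normal arrays gave 167 calls, 97 of them shared.

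Leaving out 1 array, list medians ran from 2.13 to 3.01 (small intestine), 2.17 to 3.56 (ileum), 3.18 to 4.56 (Paneth), -2.58 to -1.61 (squamous), -1.56 to -1.19 (hair) and -1.18 to -0.87 (skeletal muscle). Normexp moved Paneth to 3.17, squamous to -1.11, hair to -0.38 and skeletal to -0.48. Skeletal was -0.57 without a filter, and hair -2.06 with a filter by normal group. The sebaceous median was 0.03 on slide 2 alone, and leaving out 1 array it ran from -0.54 to 0.03, the latter without microRNA replicate 2. Site covariates are themselves the small intestine, squamous and skeletal levels, which holds those lists near 0 by construction; with them the medians were -0.73 (small intestine), -8.80 (ileum), -0.18 (Paneth), -0.48 (squamous), 0.06 (hair), 0.44 (skeletal), -2.02 (inflammation) and -4.36 (antimicrobial). Reversed there, each with an adjusted p of 1 in limma, were Mmp7 (-1.16), Apoa1 (-0.11), Anpep (-1.67), Fabp6 (-0.81), Soat2 (-3.42), Olfm4 (-4.39), Ccl25 (-3.39), Lor (7.27), Krtdap (5.77), Krtap19-2 (1.70), Myh2 (1.41), Ccr7 (4.82), Habp2 (-1.26) and Cfi (-5.07). That fit has 6 residual degrees of freedom. Dim groups give bounds only.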
